A study of Rattus norvegicus with 14 samples.

Results

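The right soleus of 2 male Sprague Dawley rats, tenotomized 6 weeks earlier, was set against the opposite, left soleus of the same animal. The members are 4 arrays of the 14 in the series, namely the right (6-week) and left (control) muscles of rats 61 and 62, the only animals of the 12 with both muscles measured. They were chosen by the titles, which give the rat number and the leg. The other arrays came from right muscles tenotomized for 1, 2, 3 or 4 weeks (6 arrays), 16 weeks (1 array) and 22 weeks (1 array), and from the left muscles of 2 rats with no other muscle measured, the unpaired controls (named control_rat_161 and control_rat_163). The labels name no genetic change, and animals of all groups were kept on a day and night cycle of 12 h with free food and water, and had no age stated. Every tenotomized muscle was a right one and every control a left one, so leg and tenotomy cannot be told apart. A left muscle of rats 61 or 62 is also a muscle of an animal with a tenotomized leg, and nothing in the labels says whether the unpaired controls were operated on. The labels do not say how the tendon was cut or how the opposite leg was loaded.

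Tenotomy cuts the tendon, so that the muscle shortens and no longer bears load while its nerve stays intact. The soleus is a calf muscle that works almost constantly in standing and is made mainly of slow fibres, which use slow myosin and live on fatty acid oxidation. Unloaded muscle is known to lose fibre mass, to shift between slow and fast contractile proteins, and to gain connective tissue. The question of the comparison was which transcripts still differed between the legs of 1 animal after 6 weeks. A pair removes what 2 legs of a rat have in common, which a comparison with other animals cannot do.

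Values are probe set signals on the log2 scale, with the arrays set to a common median over the genes tested, so that a difference of 1 is a 2-fold change. Signals under the pooled 25th percentile (9.70, or 3.28 on the log2 scale) were raised to that floor, and a gene was tested if its mean over the 4 arrays reached 4.46. Of 14217 genes with a probe set, 10187 were tested. The deposited array medians lay between 37.0 and 47.3 on the 4 arrays, and the number of arrays limits the precision. The arrays correlated at r between 0.969 and 0.983, with the highest value between the legs of rat 61. The muscle markers fitted the label: slow myosin Myh7 lay between 13.02 and 13.32 on the 4 arrays. The Gapdh 3' to 5' signal ratio, a sign of RNA quality, was 1.54 and 1.41 in the right muscles of rats 61 and 62 and 2.13 and 2.78 in their left muscles. It therefore moved with the leg, and its part in the results below was not tested. The same ratio of actin was 2.15 and 2.03 in the right muscles and 1.81 and 2.37 in the left, and went opposite ways in the 2 rats. In a whole muscle, fewer cells of a type and less RNA per cell cannot be told apart.

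The 4 control muscles differed among themselves. The left muscle of rat 61 lay at least 2-fold above all 3 others in 47 genes and at least 2-fold below all 3 in 75, against 16 and 34 genes for the left muscle of rat 62. The muscles of control_rat_161 and control_rat_163 gave 21 and 32, and 48 and 67, such genes. At 4-fold, 18 genes were lower in the left muscle of rat 61, against 0 in that of rat 62 and 4 in each unpaired control, and 3 were higher, against 3 in that of rat 62 and 0 and 4 in the muscles of control_rat_161 and control_rat_163. The left muscle of rat 61 was also low in the fast fibre genes given below, and whether its label is right was not tested, which bears on every difference of rat 61. Each value below is therefore given for the 2 rats separately, and the value without rat 61 is the value of rat 62.

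The legs differed little, and the 2 rats shared only part of what differed. Of the 10187 genes, 84.7% lay within 1.5-fold between the legs in both rats. The right leg was higher in both rats in 2852 genes (28%) and lower in both in 2844 (27.9%), and 4491 (44.1%) went opposite ways. Across genes, which are not independent replicates, the changes of the 2 rats had a Pearson r of 0.15 and a Spearman rho of 0.18. In rat 61 alone, 96 genes were at least 2-fold higher in the right leg and 60 at least 2-fold lower. In rat 62 the counts were 158 and 97. Only 6 genes were at least 2-fold higher in both rats, 0.0589% of those tested, and 7 at least 2-fold lower, 0.0687%. A further 8 genes passed 2-fold in opposite directions, 6 of them higher in rat 61 and lower in rat 62. For scale, the 2 right muscles differed from each other by 2-fold or more in 235 genes and the 2 left ones in 426.

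**Figure D1:**
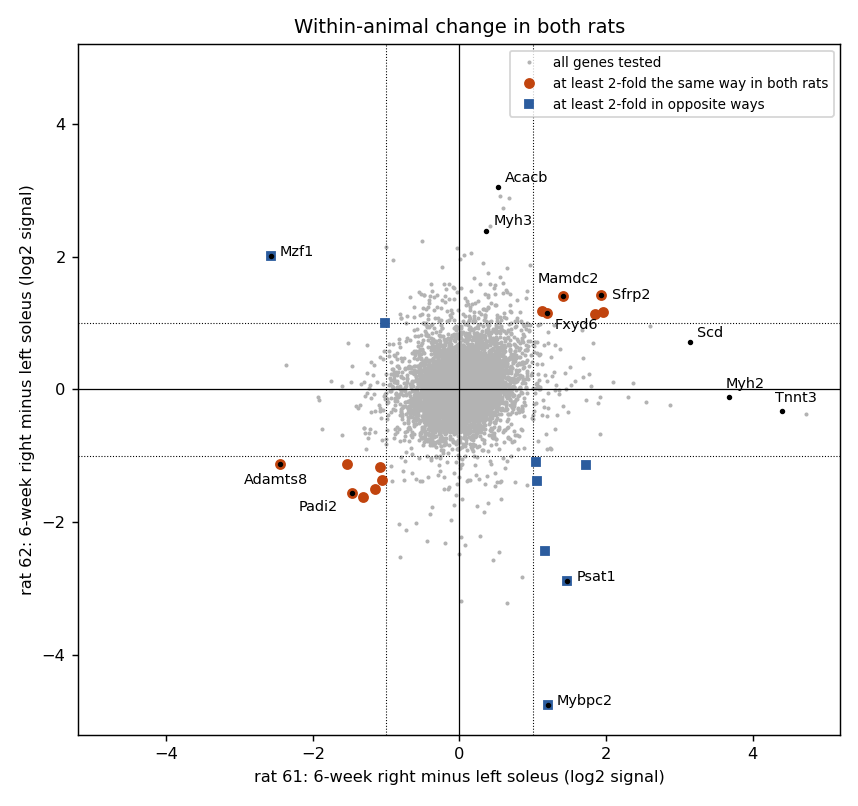
Each point is 1 of the 10187 genes tested, with the log2 difference between the 6-week right and the left soleus of rat 61 on the x axis and of rat 62 on the y axis; dotted lines mark 2-fold. Orange points are the 6 genes higher and 7 lower by at least 2-fold in both rats, blue squares the 8 that passed 2-fold in opposite ways, and most genes lie near 0.

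The genes that passed the test were Mamdc2 and Fxyd6, which rose in the right leg, and Padi2, which fell. The test was limma with the rat as a block and an adjusted p under 0.05 by Benjamini-Hochberg over all 10187 genes, and the 2 higher genes (0.0196%) and the 1 lower (0.00982%) make up 0.0294% of them. It has 1 residual degree of freedom, and most of its estimate of the spread is borrowed from other genes. A total of 983 genes had an unadjusted p under 0.05. An exact test that flips the sign of each pair cannot go below p = 0.5 with 2 pairs. Neither Mamdc2, Fxyd6 nor Padi2 passed without the rat as a block, where no gene passed and the lowest adjusted p was 0.948, with 515 genes at an unadjusted p under 0.05. All 3 also missed the threshold with no filter on low signals (adjusted p = 0.714) or with no intensity trend (0.543).

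Mamdc2, which encodes a secreted protein with MAM domains, had log2 signals of 8.32 and 7.93 in the right muscles of rats 61 and 62, against 6.91 and 6.52 in their left muscles. Both right muscles lay above both left ones and above the unpaired controls, at 6.32 and 6.69. It rose by 1.41 ± 0.15 (SE, n = 2 pairs), or 2.65-fold (limma adjusted p = 0.042). Here and below the SE is that of limma, mostly borrowed from other genes, and does not measure the spread between the 2 pairs. Fxyd6, which encodes a FXYD protein that modulates the sodium pump, had 8.89 and 8.33 in the right muscles of rats 61 and 62, against 7.69 and 7.18 in their left muscles. The pairs again did not overlap, and the other controls were lower still at 6.92 and 6.69. The rise was 1.18 ± 0.13 (adjusted p = 0.042). Padi2 makes peptidylarginine deiminase 2, an enzyme that turns arginine residues of proteins into citrulline. Its signal was 7.24 and 6.62 in the right muscles of rats 61 and 62, against 8.70 and 8.18 in their left muscles. Padi2 fell by 1.51 with an SE of 0.14 (adjusted p = 0.034), and both right muscles were below all 4 controls, the other controls being at 9.57 and 8.09. Each of the 3 genes has 1 probe set on the array.

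The promoters of the 3 genes are shown because they are the only ones whose transcripts passed the test. Each window runs from 250 bases before to 50 bases after the annotated start, 5′ to 3′ on the gene's strand, from RefSeq on build GRCr8. Capitals mark the E-box, CANNTG, the letters bound by myogenic and other helix-loop-helix factors. Mamdc2 lies on the minus strand at chr1:230442942-230443241, Fxyd6 on the plus strand at chr8:54575575-54575874 and Padi2 on the plus strand at chr5:158491837-158492136.
Mamdc2: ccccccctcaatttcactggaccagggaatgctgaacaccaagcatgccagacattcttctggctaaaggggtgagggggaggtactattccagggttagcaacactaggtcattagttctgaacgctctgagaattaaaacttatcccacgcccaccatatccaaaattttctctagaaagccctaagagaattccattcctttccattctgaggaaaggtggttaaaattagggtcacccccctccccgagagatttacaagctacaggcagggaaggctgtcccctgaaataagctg
Fxyd6: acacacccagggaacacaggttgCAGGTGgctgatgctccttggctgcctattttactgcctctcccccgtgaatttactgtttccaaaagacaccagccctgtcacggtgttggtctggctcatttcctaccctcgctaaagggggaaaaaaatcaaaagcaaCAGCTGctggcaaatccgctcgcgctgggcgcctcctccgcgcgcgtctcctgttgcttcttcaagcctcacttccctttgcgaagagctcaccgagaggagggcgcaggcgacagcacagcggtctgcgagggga
Padi2: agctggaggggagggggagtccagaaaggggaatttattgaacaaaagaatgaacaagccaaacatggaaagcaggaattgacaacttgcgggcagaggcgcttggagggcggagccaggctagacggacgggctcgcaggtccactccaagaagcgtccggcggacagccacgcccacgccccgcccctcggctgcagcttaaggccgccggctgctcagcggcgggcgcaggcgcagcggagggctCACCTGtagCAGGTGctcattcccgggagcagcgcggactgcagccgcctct
The Fxyd6 and Padi2 windows each held 2 E-boxes and the Mamdc2 window 0. An E-box was present in 71.6% of the 27457 RefSeq promoter windows and in 62.1% of the 8535 windows of genes tested here. The GC box GGGCGG occurred at 2 places in the Padi2 window, in none of the other 2, in 34.9% of all windows and in 63.4% of the windows of genes tested. Both strands were searched. These matches describe letters only.

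Beside Mamdc2 and Fxyd6, the genes at least 2-fold higher in both rats were Sfrp2, Fam216b, Spmip6 and C11h21orf91. Sfrp2, a secreted modulator of Wnt signalling made by fibroblasts, had 5.69 and 6.29 in the right muscles of rats 61 and 62, against 3.75 and 4.88 in their left muscles. Its mean difference was 1.68 ± 0.32 (SE, n = 2 pairs; adjusted p = 0.15), and its second probe set gave 1.46 and 1.72 in rats 61 and 62. Fam216b had 8.25 and 7.41 in the right muscles, against 6.30 and 6.25 in the left. Spmip6, which encodes a microtubule inner protein known from sperm, had 6.72 in both right muscles, against 4.88 and 5.58 in the left. The last of them at the 2-fold line, C11h21orf91, differed by 1.12 and 1.18 in rats 61 and 62. Its second probe set gave only 0.42 and 0.41, short of 2-fold. The first gene outside the 2-fold line was Enpp3, an ectoenzyme that splits extracellular nucleotides, with 1.11 and 0.98.

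The next genes in that order included markers of macrophages and granulocytes. They were Rfx2, Lyl1, Mnda, Cfi, Sapcd1, Cd68, Hoxd9 and S100a9, with the smaller of the 2 differences close to 1 in each. Cd68, a lysosomal protein of macrophages, had 6.11 and 6.90 in the right muscles of rats 61 and 62, against 5.19 and 5.90 in the left. Cfi encodes complement factor I, which inactivates complement, and had 9.04 and 8.95 in the right muscles, against 8.08 and 7.98 in the left. S100a9, a calcium-binding protein of neutrophils and monocytes, had 7.22 and 7.43, against 6.30 and 5.95. In control_rat_161 and control_rat_163 the signals were 6.53 and 6.26 for Cd68, 8.07 and 8.13 for Cfi, and 7.53 and 6.10 for S100a9. For Cd68 the right muscle of rat 61 was thus below both unpaired controls. For S100a9 both right muscles were below control_rat_161, and for Cfi both were above both unpaired controls. None of these genes passed the test, with adjusted p-values of 0.24, 0.07 and 0.12 for Cd68, Cfi and S100a9.

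Beside Padi2, the genes at least 2-fold lower in both rats were Sesn3, Reep6, Adamts8, Grxcr1, Wdr17 and Fam167a. Adamts8, a secreted metalloprotease, had 6.80 and 6.39 in the right muscles of rats 61 and 62, against 9.25 and 7.52 in their left muscles, with a mean difference of -1.79 ± 0.27 (adjusted p = 0.08). Reep6, a protein that shapes endoplasmic reticulum membranes, had 6.26 and 6.28 in the right muscles, against 7.42 and 7.78 in the left. Sesn3, a sestrin that restrains growth signalling under stress, had 4.47 and 3.97 in the right muscles, 1.31 and 1.62 below the left. In control_rat_161 and control_rat_163 the signals were 7.48 and 5.88 for Adamts8, 8.92 and 8.72 for Reep6, and 4.59 and 4.83 for Sesn3. For Adamts8 both right muscles were thus above control_rat_163. For Reep6 and Sesn3 both were below both unpaired controls. The left muscles were above both unpaired controls for Sesn3 and below both for Reep6. Fam167a was just inside the 2-fold line, at -1.06 and -1.37 in rats 61 and 62, and LOC102547700 just outside it, at -0.94 and -1.15. The genes that followed included Pex11a, which drives the division of peroxisomes, Myc, a growth-related transcription factor, and Aqp4, the water channel of the fibre membrane. Aqp4 had 4.83 and 4.16 in the right muscles of rats 61 and 62, against 5.64 and 6.68 in the left. Myc had 5.67 and 6.50, against 6.49 and 8.52, and none of these genes passed the test.

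**Figure D2:**
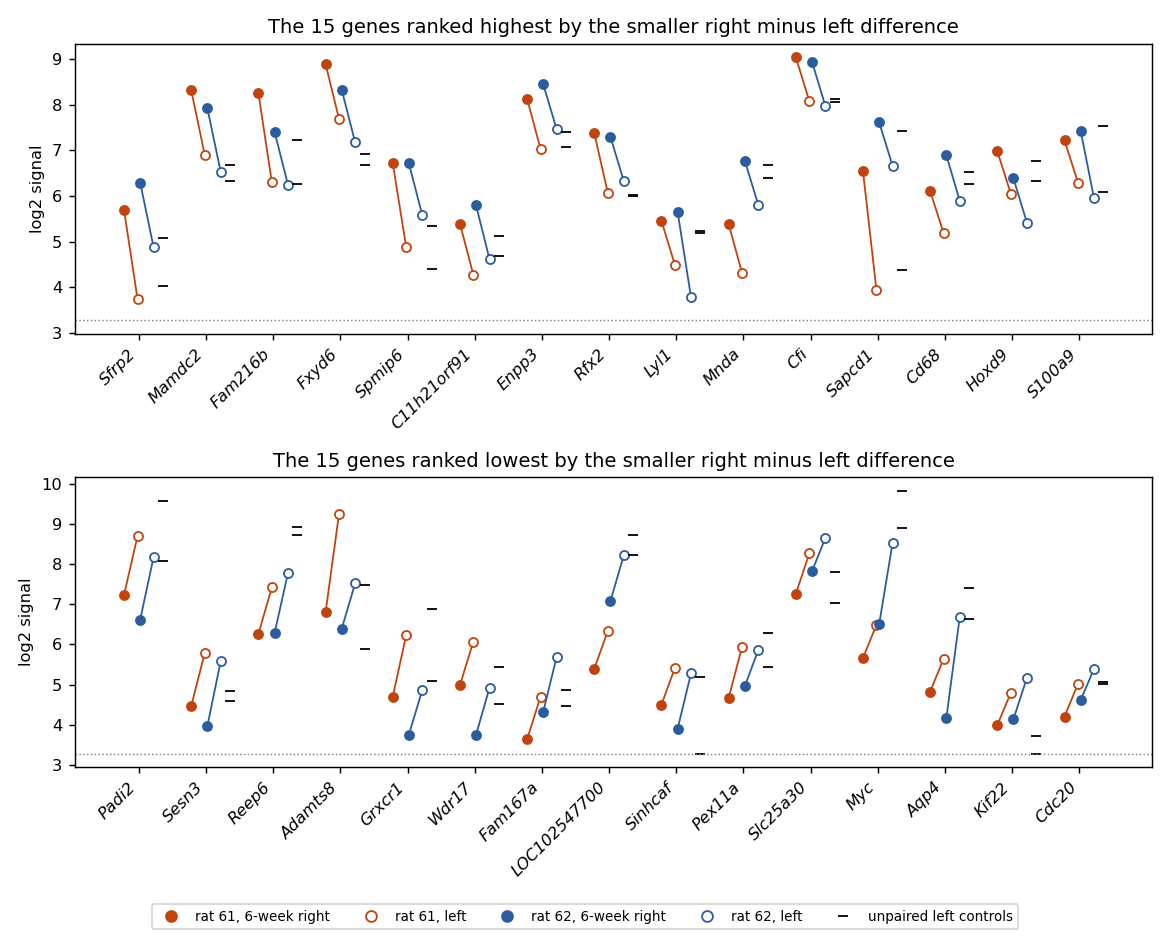
Log2 signals of the 15 genes ranked highest (top) and lowest (bottom) by the smaller of the 2 differences. Filled circles are the 6-week right muscles and open circles the left muscles of rat 61 (orange) and rat 62 (blue), dashes the unpaired controls, and the dotted line the floor at 3.28. For Mamdc2 and Fxyd6 both right muscles lie above all 4 controls, and for Padi2 below them.

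Muscles of other rats were looked up for the same genes. Of the 6 genes 2-fold higher in both rats, 3 were above both unpaired controls at 16 weeks, where 29.4% of all genes were, and 4 at 22 weeks, where 43.4% of all genes were. Mamdc2, Fxyd6 and Spmip6 were above both at both times, where 16.9% of all genes were. Of the 7 genes 2-fold lower, 3 were below both unpaired controls at 16 weeks (34.6% of all genes), 5 at 22 weeks (35.9%) and 3 at both times (16.3%). For the 106 genes at least 1.5-fold higher in both rats (1.04% of those tested), the counts at 16 weeks, 22 weeks and both were 38 (35.8%), 34 (32.1%) and 17 (16.0%). For the 51 genes at least 1.5-fold lower (0.501%), they were 18 (35.3%), 26 (51.0%) and 12 (23.5%). Weeks 16 and 22 are 1 array each and carry no test.

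Changes in weeks 1 to 4 were set beside those of the pairs. The 6 early arrays were compared with the unpaired controls in a limma fit to all 14 arrays, where 1348 genes (13.2%) were higher and 1917 (18.8%) lower. The means compared share no array with the pairs, but the paired arrays add to the estimate of the spread. Without 1 of them, 1229 to 1267 genes were called higher and 1716 to 1761 lower. Without control_rat_161 the counts were 677 and 877, and without control_rat_163 they were 473 and 633. The median gene of that comparison shifted by -0.13, and early changes are given relative to it. Calls and adjusted p-values are for the changes before that shift was removed. Of the 106 genes 1.5-fold higher at 6 weeks, 48 were called higher early (45.3% of the 106 and 3.56% of the 1348) and 2 lower. Of the 51 genes 1.5-fold lower, 19 were called lower early (37.3% of the 51 and 0.991% of the 1917) and 2 higher. The median early change was 1.01 for the 106 genes and -0.34 for the 51.

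The named genes divided in the same comparison. Sfrp2 was higher by 3.77 in weeks 1 to 4 (adjusted p = 0.00041), with early signals between 7.40 and 9.11 that lay above both its 6-week signals. Fxyd6 was higher by 1.74 (adjusted p = 0.0032) and Enpp3 by 1.98 (adjusted p = 0.001). Padi2 had an early change of -2.76 (adjusted p = 0.003), and Reep6 had -3.29 (adjusted p = 0.0031). Fam216b went the other way, with an early change of -1.69 (adjusted p = 0.043) beside its higher signals at 6 weeks. Fam167a had an early change of 1.88 (adjusted p = 0.037), also opposite to 6 weeks. Mamdc2 had 0.91 early and did not pass (adjusted p = 0.12).

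Contractile genes of the fast type separated the 2 rats. Myh2, the myosin of fast oxidative fibres, had 12.82 and 12.70 in the right muscles of rats 61 and 62, against 9.14 and 12.81 in their left muscles. Only the left muscle of rat 61 was low. Fast troponin T, Tnnt3, had 11.67 and 11.91 in the right muscles, against 7.26 and 12.24 in the left. Fast troponin I, Tnni2, had 11.82 and 11.88, against 7.10 and 12.26, a difference of 4.72 in rat 61 and -0.38 in rat 62. Of the 14 fast fibre genes tested, 5 were at least 2-fold higher in the right leg of rat 61 and 0 in that of rat 62. The summed signal of the list was 49708 and 51612 in the right muscles of rats 61 and 62, against 27826 and 55356 in the left. The unpaired controls also lay apart, at 65554 and 34977, with Myh2 at 13.03 and 9.94.

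Mybpc2 is the fast form of myosin binding protein C. Its signal was 5.67 and 5.13 in the right muscles of rats 61 and 62, against 4.47 and 9.87 in the left, so the right leg was higher in rat 61 and lower in rat 62, as for Myh2, Tnnt3 and Tnni2, but with the larger difference in rat 62. The mean difference of Myh2 was 1.78 ± 0.66 (adjusted p = 0.44), that of Tnnt3 2.04 ± 0.82 (0.49) and that of Mybpc2 -1.77 ± 1.04 (0.65). The differences in rats 61 and 62 were 3.68 and -0.11 for Myh2, 4.41 and -0.33 for Tnnt3, and 1.20 and -4.75 for Mybpc2. The 2 rats thus lay much further apart than these limma SEs show. Over the list the median change was 0.50 in rat 61 and -0.06 in rat 62, against 0.01 and -0.01 over all genes tested. In it 4 genes were higher in both rats and 2 lower in both. The 2 lower genes were Mylk2, the myosin light chain kinase of skeletal muscle, at -0.46 on average, and Myh4, the fastest myosin, with low signals of 4.77 and 3.76 in the right muscles, against 5.15 and 5.54. The second probe set of Mylk2 went opposite ways, at -0.88 in rat 61 and 0.63 in rat 62.

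In the median, slow fibre genes differed little between the legs. Myh7 had 13.32 and 13.26 in the right muscles of rats 61 and 62, against 13.02 and 13.23 in the left. Its second probe set had 12.16 and 12.49, against 12.05 and 11.52, a difference of 0.11 in rat 61 and 0.97 in rat 62. Slow troponin T, Tnnt1, had 13.24 and 13.20, against 13.22 and 13.14, and on the deposited scale the sign of its mean difference turns. Of the 13 slow genes tested, 9 were higher in both rats and 0 lower in both, with medians of 0.31 and 0.03. The member with the largest shared difference was sarcolipin, Sln, an inhibitor of the calcium pump. It had 12.30 and 12.11 in the right muscles of rats 61 and 62, against 11.61 and 10.67 in the left, a mean difference of 1.06 ± 0.17 (adjusted p = 0.12). Both right muscles lay above all 4 controls, the other controls being at 10.92 and 10.72. Phospholamban, Pln, another inhibitor of that pump, had 8.49 and 7.34, against 7.95 and 6.82. Its unpaired controls had 8.15 and 9.95, so neither right muscle lay above all 4 controls.

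Among developmental genes the neonatal and embryonic myosins were higher in the right legs. Myh3, the embryonic myosin, had 11.01 and 10.66 in the right muscles of rats 61 and 62, against 10.64 and 8.27 in their left muscles, and the other controls had 8.79 and 8.64. The left muscle of rat 61 was thus the only control near the tenotomized level. The mean difference was 1.38 ± 0.36 (adjusted p = 0.29). Myh8, the perinatal myosin, had 5.47 and 5.12 in the right muscles, against 3.28 and 3.29 in the left. Its left value in rat 61 was at the floor, so the right muscle was at least 4.56-fold higher. That of rat 62 was just above the floor, and the right muscle was 3.55-fold higher. Its mean of 4.29 over the 4 arrays fell under the filter, so it was not tested. With a filter on 2 of the 4 arrays, under which 10480 genes were tested, it had 2.01 ± 0.42 (adjusted p = 0.21). Myl4, the embryonic light chain, had 8.15 and 7.94, against 7.25 and 7.35. The muscle regulatory factor myogenin, Myog, had 10.04 and 9.99, against 9.50 and 9.62, while Myod1 was lower, at 5.59 and 5.78 against 6.38 and 6.06. Of the 9 tested genes of the list 7 were higher in both rats and 2 lower, and none passed the test.

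**Figure D3:**
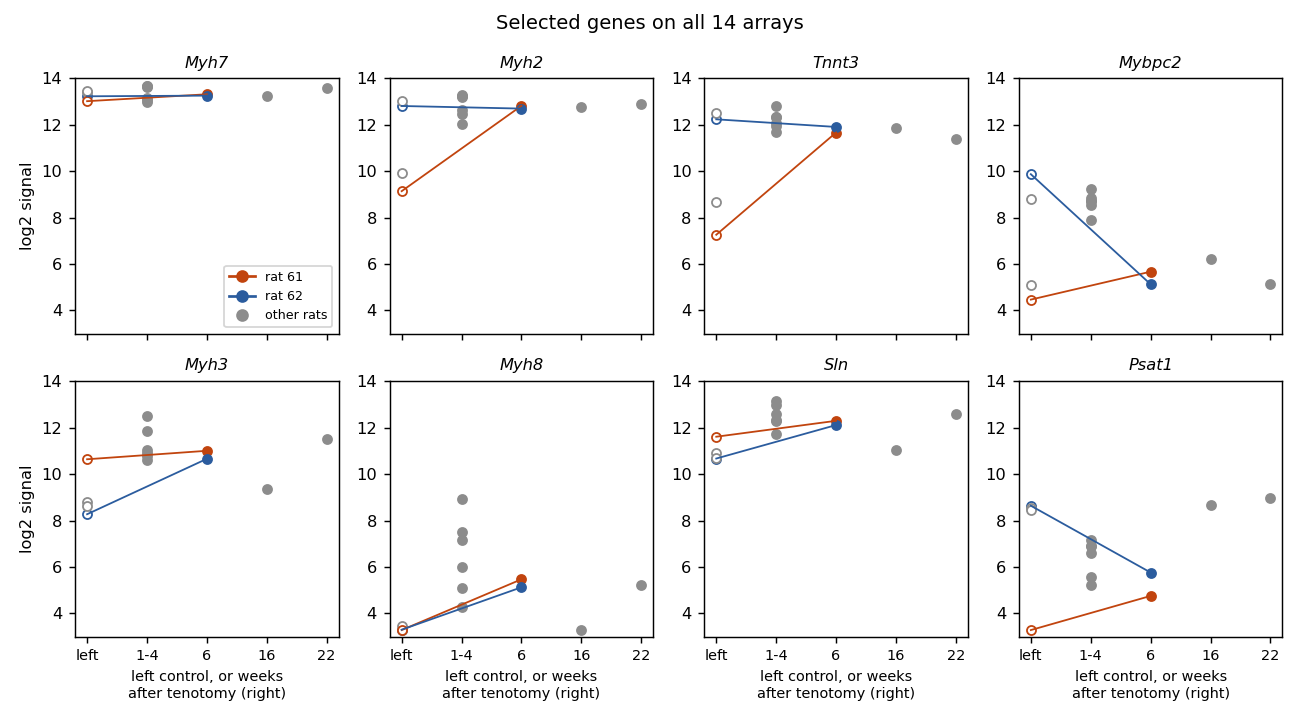
Log2 signals of 8 genes on all 14 arrays, by left control or weeks after tenotomy. Open circles are left and filled circles right muscles, with lines joining the legs of rat 61 (orange) and rat 62 (blue) and other rats in grey. For Myh2 and Tnnt3 the left muscle of rat 61 and that of 1 other control are low, and for Sln both right muscles lie above all 4 left ones.

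No gene of the denervation, atrophy or stretch lists passed the test. The atrophy ubiquitin ligase Fbxo32 had 5.96 and 5.99 in the right muscles of rats 61 and 62, against 5.53 and 5.13 in the left. The other main ligase, Trim63, had 10.23 and 10.05, against 10.22 and 10.12. Of 15 atrophy ligases and FOXO factors, 3 were higher in both rats, 3 lower in both and 9 opposite. Of 12 end-plate and denervation genes, 6 were higher in both rats, 3 lower in both and 3 opposite. The acetylcholine receptor subunit Chrna1 had 8.78 and 8.29, against 9.38 and 8.54, and the subunit Chrne had 6.11 and 5.73, against 5.38 and 5.32. Among 21 stretch responsive genes, Fos, an immediate early gene, had the largest shared difference, at 11.11 and 10.61 against 10.35 and 9.59, a mean difference of 0.89 ± 0.12 (adjusted p = 0.073). Csrp3, a sensor at the Z disc, had 12.54 and 12.49, against 12.08 and 12.04. Ankrd1 went opposite ways, at 7.13 and 7.69 against 8.59 and 7.34. The chaperone Hspa1a had 11.41 and 10.96, against 10.64 and 10.32 (adjusted p = 0.11). Proteasome subunits had medians of 0.06 and -0.03, with 20 of 35 opposite. Autophagy genes had 0.07 and 0.02, with 5 of 15 higher in both rats.

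Collagen and matrix genes were slightly higher in the right legs. Of 44 tested, 29 were higher in both rats and 2 lower in both, with a median of 0.27 in rat 61 and 0.29 in rat 62. The summed signal was 38088 and 38402 in the right muscles of rats 61 and 62, 31528 and 31775 in their left muscles, and 23666 and 26306 in the unpaired controls. None passed the test. Elastin, Eln, had 7.48 and 7.51 in the right muscles of rats 61 and 62, against 6.55 and 6.78 in the left, a difference of 0.83 ± 0.17 (adjusted p = 0.17). Biglycan, Bgn, a small proteoglycan of the matrix, had 8.84 and 8.63, with a difference of 0.71 ± 0.12 (adjusted p = 0.12). The fibrillar collagen Col3a1 had 11.80 and 12.19, against 11.35 and 11.90. Among proteases, the membrane collagenase Mmp14 had 7.67 and 7.87, against 6.85 and 7.27, and cathepsin K, Ctsk, had 7.40 and 7.41, against 6.72 in both left muscles.

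The difference between early and 6-week changes was tested for the same genes. It set the paired change against the early change in the 14-array fit, whose median gene shifted by 0.13, and values are relative to it. Calls and adjusted p-values are for the differences before that shift was removed. The test called 7 genes (0.0687%) with a higher 6-week change and 9 (0.0883%) with a lower one. Among the lower were Col1a1, Postn, Spon1 and C1qtnf3, which encode matrix or other secreted proteins. Col1a1 had 10.48 and 10.67 in the right muscles of rats 61 and 62, against 10.32 and 10.45 in the left, and an early change of 3.78. Its difference was -3.59 (limma adjusted p = 0.024). Postn, a matrix protein of fibroblasts, had 9.57 and 9.67 in the right muscles, against 10.53 and 9.10 in the left, and a difference of -5.21 (adjusted p = 0.024). Spon1 and C1qtnf3 had differences of -5.17 and -5.19. The left muscles themselves were not alike: Col1a1 was 9.01 and 9.13 in the unpaired controls, under the left muscles of rats 61 and 62, and Postn 7.31 and 7.68. Over all genes, limma called 0 genes higher and 0 lower (0% each) between the left muscles of rats 61 and 62 and the unpaired controls, with 393 at an unadjusted p under 0.05. No gene was called in the test of the difference without either right muscle of the pairs, without the left muscle of rat 61 or without control_rat_163.

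No gene of the energy metabolism lists passed the test at 6 weeks. Of 29 genes of fatty acid oxidation and uptake, 4 were higher in both rats and 13 lower in both, with medians of -0.01 and -0.08. In weeks 1 to 4, 25 of the 29 were called lower, beside 18.8% of all genes tested, and the list had a median of -1.09. Hadh, a dehydrogenase of fatty acid oxidation, had 11.78 and 11.91 in the right muscles of rats 61 and 62, against 11.98 and 12.08 in the left, and an early change of -1.80. The difference of those changes, relative to the median gene, was 1.62 (adjusted p = 0.039, tested before the shift of the median gene was removed). Acaa2, the thiolase that ends the cycle, had 1.66 and Acot2, a mitochondrial thioesterase, 1.92 (adjusted p = 0.048 each). Cpt1b, the gate of fatty acid entry into mitochondria, had 12.27 and 12.18, against 12.31 and 12.23. Of 55 respiratory chain genes, 42 went opposite ways, with medians of 0.19 and -0.07, and 37 of the 55 were called lower early, beside the same 18.8%. Of 25 genes of the citric acid cycle and pyruvate oxidation, 2 were higher in both, 5 lower in both and 18 opposite. Of 26 glycolytic genes, 7 were higher and 4 lower in both. Stbd1, which anchors glycogen, had 9.22 and 9.45 in the right muscles, against 9.62 and 11.33 in the left (adjusted p = 0.24). Ribosomal proteins went opposite ways in 22 of 23, beside 44.1% of all genes tested, with small medians of 0.18 and -0.08. Differences of this size are like those between scalings: a median over all probe sets left the median gene of rat 62 at -0.18.

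Markers of several cell types other than fibres, though not of all, leaned to the right leg. Of 19 macrophage markers tested, 14 were higher in both rats and 0 lower in both, with medians of 0.38 and 0.66. Their summed signal was 4718 and 5333 in the right muscles of rats 61 and 62, 4258 and 3571 in their left muscles, and 4644 and 5122 in the unpaired controls, so the right muscles did not exceed every control. Itgam was at the floor on all 4 arrays. Cathepsin S, Ctss, had 7.70 and 8.28 in the right muscles of rats 61 and 62, against 6.95 and 7.70 in the left (adjusted p = 0.2). Of 10 markers of lymphocytes and antigen presentation 7 were higher in both rats and 0 lower, with a summed signal of 1925 and 3142, against 1246 and 2251, and Cd79b and Ms4a1 at the floor. Their sums in control_rat_161 and control_rat_163 were 2367 and 1759, so the right muscle of rat 61 was below control_rat_161. The class II invariant chain Cd74 had 9.35 and 9.79, against 8.14 and 9.08 (adjusted p = 0.08). All 6 mast cell and granulocyte markers were higher in both rats, summing to 507 and 619 against 341 and 360, with Mcpt1 at the floor. The sum in control_rat_161 was 662, above both.

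Fibroblast markers were higher in both rats in 13 of 16 and lower in 0, with summed signals of 24711 and 24319 in the right muscles of rats 61 and 62, against 19747 and 21055 in the left. Pi16, a marker of one fibroblast population, had 8.54 and 9.04, against 7.91 and 8.41 (adjusted p = 0.15). Smooth muscle and pericyte markers were higher in both in 9 of 15 and lower in 0. Schwann cell and nerve markers were higher in both in 7 of 9, with Sox10 at the floor. Endothelium markers were higher in both in 5 of 13, lower in 1 and opposite in 7, with medians of 0.26 and -0.02. Of 4 red blood cell markers, 1 was higher in both and 3 went opposite ways, with medians of -0.26 and 0.90. Adipocyte markers split, 4 higher and 5 lower of 19, with medians of 0.40 and -0.04 and Lep at the floor. Scd, the desaturase that makes oleic acid, had 6.42 and 4.97 in the right muscles of rats 61 and 62, against 3.28 (the floor) and 4.26 in the left. Tendon markers had 4 higher and 2 lower of 9, with summed signals of 6467 and 3300, against 5379 and 3614, higher in rat 61 and lower in rat 62. Against these counts stand 28% higher and 27.9% lower in both rats over all genes tested. The part of these cells in the gene changes above was not tested.

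**Figure D4:**
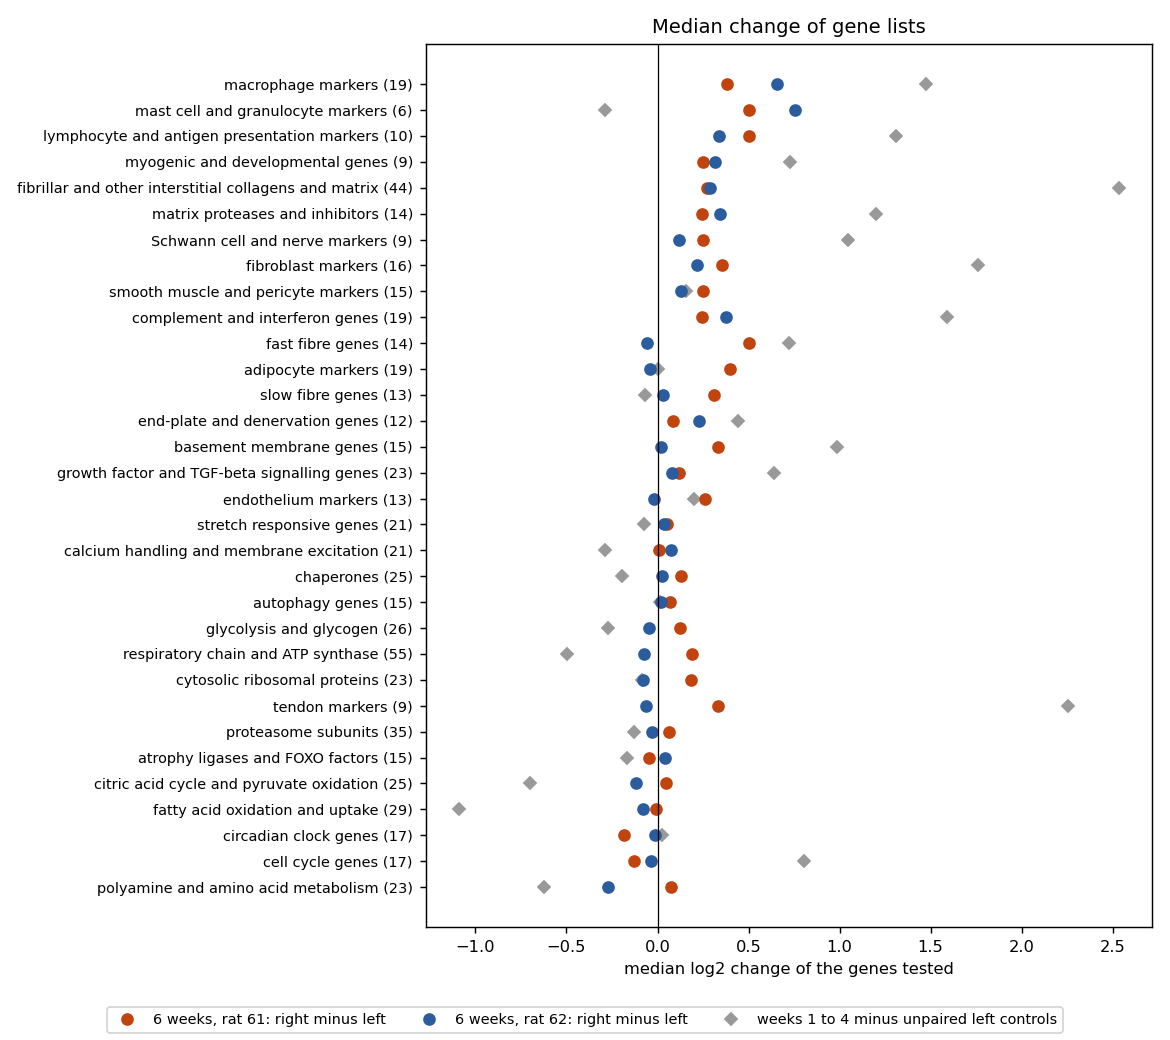
Median log2 change of each gene list with at least 6 genes tested (their number in brackets). Orange and blue circles are the 6-week right minus left muscle of rats 61 and 62, and grey diamonds the change of weeks 1 to 4 against the unpaired controls, relative to the median gene. The collagen and matrix list sits at 0.27 and 0.29 at 6 weeks and at 2.54 in weeks 1 to 4.

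Genes whose legs differed in opposite ways were led by Mybpc2, Psat1, Fcrla, Hs1bp3, Arrb1 and Trim46, higher in the right leg of rat 61 and lower in that of rat 62. Psat1, an enzyme of serine synthesis, had 4.75 and 5.76 in the right muscles of rats 61 and 62, against 3.28 and 8.64 in the left, where 3.28 is the floor. The right muscles were both low and the left ones far apart, and the unpaired controls had 8.56 and 8.47. In the reverse orientation Mzf1 and Ptprz1 passed 2-fold. Ptprz1, a receptor tyrosine phosphatase, differed by -1.01 in rat 61 and 1.00 in rat 62, and its second probe set was at the floor on all 4 arrays. Mzf1, a zinc finger transcription factor, had 3.43 and 5.29 in the right muscles, against 6.00 and 3.28 in the left, so its signal was near the floor on 2 of the 4 arrays. The second probe set of Mzf1 gave 0.39 in rat 61 and -0.32 in rat 62, the other way round.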

How the data were processed

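The members, gene lists and tests were chosen with earlier results of these data known. Total RNA of whole soleus was labelled and hybridised to 1 array per muscle. The authors deposited a linear signal intensity per probe set, computed with MAS5 per the submitters' processing notes; the scaling target is not given in the sources used here.

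Of 31099 probe sets, 57 controls were left out, and 20826 with 1 gene symbol, 436 with several and 9780 with none were counted among the rest. Names were matched to RefSeq by Entrez ID (20758) or symbol (54), and 14 kept the name of the platform annotation. The probe set with the highest mean represented a gene. Signals were taken to log2, set to a common array median and raised to the 25th percentile; genes averaging under the 40th percentile of 22.0 on the 4 arrays were left out. The median over the genes tested was chosen after seeing the data: a median over all probe sets left the median gene at 0.01 in rat 61 and -0.18 in rat 62. limma 3.58.1 in R 4.3.3 fitted rat and leg with an intensity trend, checked on simulated data first. The simulated spreads were drawn from limma's own estimate, so that check cannot show whether its assumptions hold for these arrays. The rat number pairs the legs by the labels; deviations of the 2 legs correlated at 0.40. A second limma fit to all 14 arrays, without a block, gave the early change and the difference. Separate rat numbers are taken as separate animals. Named genes were the 15 ranked highest and lowest by the smaller difference, up to 4 a direction from each list, fixed muscle genes, the 6 most opposite each way, the 10 lowest p-values, and genes called in the test of the difference. Alternatives were other scalings, filters, probe set rules, blocks and left-out arrays.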

Additional observations from a re-analysis of the deposited data

Results flagged for a closer look

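Among the 4 control muscles, 9 of the 71 genes screened had 1 muscle far from the others. The rule is set to flag about 1 gene in 20 (5%) by chance. That rate does not hold here, because some signals were at the floor and some genes were named for differences on these arrays. No excess can therefore be read from the count. The muscle of control_rat_163 was far above in Ppargc1a, the coactivator of mitochondrial genes (11.2, against 8.29 to 8.48), in the atrophy ligase Trim63 (11.1, against 10.1 to 10.3) and in Fam216b (7.23, against 6.25 to 6.30). It was also apart in the low signals of Mstn (4.10) and Myh8 (3.45). The left muscle of rat 61 was far below in Psat1 (3.28, against 8.47 to 8.64) and above in Mzf1 (6.00, against 3.28 to 3.63). The muscle of control_rat_161 was below in Sinhcaf (3.28, against 5.19 to 5.42), and that of rat 62 above in Cdc20 (5.40, against 5.01 to 5.06).

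The limma test of the difference was run before the shift of the median gene was removed. By that test the 6-week change differed from the early change in 16 genes, given on the log2 scale and relative to the median gene. It was higher at 6 weeks in Slc25a34 (2.51), Acot2 (1.92), Neurl2 (1.82), Acaa2 (1.66), Hadh (1.62), Noct (1.44) and Dym (1.02). It was lower in Postn (-5.21), C1qtnf3 (-5.19), Spon1 (-5.17), Col1a1 (-3.59), Prc1 (-3.31), Kif22 (-3.31), Gpm6b (-2.26), Ncoa7 (-2.25) and Fstl1 (-2.16). The 6-week change compares legs of 1 rat and the early change compares rats, so the kind of control differs between them as well as the time.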

How the results depend on the processing

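With 2 pairs, 1 residual degree of freedom and no detection calls, the counts of calls depended on the scaling and on the spread borrowed between genes; the cause was not tested. Genes called higher and lower numbered 45 and 1367 on the deposited scale, 152 and 113 with a common 75th percentile, 65 and 24 with quantile normalization, 76 and 33 with a common trimmed mean, and, chosen after seeing the data, 68 and 91 with the median of all probe sets and 12 and 3 with robust empirical Bayes. Mamdc2, Fxyd6 and Padi2 were called under all 6 scalings, and 51 genes under the 5 others. With no replicate block, rat as a random replicate block over 14 arrays (lowest adjusted p = 0.105), no block over 14 arrays, the unpaired controls in place of the left legs, no intensity trend, no filter, or the mean of all probe sets, 0 were called higher and 0 lower, and a filter on 2 of the 4 arrays gave 0 higher. The 30 top genes kept their direction in all 416 alternative values from settings that kept both pairs. Settings with a left-out rat, or with the unpaired controls in place of the left legs, were not counted there. The 30 genes were chosen for a shared direction in both rats, so other scalings of the same arrays are a weak check of it. Tnnt1 turned to -0.23 on the deposited scale.

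Genes 2-fold higher and lower in both rats numbered 2 and 27 on the deposited scale, 29 and 20 with no filter, 22 and 17 with the filter on 2 arrays, and 106 and 51 at 1.5-fold. The share with the same direction was 74.1% on the deposited scale (571 higher and 7135 lower), 54.7% with the 75th percentile or the median of all probe sets, 46.3% with no filter and 54.2% with the mean of probe sets. In the other rats, counts above controls at 16 and 22 weeks were 1 and 1 on the deposited scale and 6 and 8 with no filter, and 2 at 22 weeks with the median of all probe sets. Counts below at 16 and 22 weeks were 7 and 12 with no filter and 5 and 11 with the filter on 2 arrays, and 14 at 22 weeks on the deposited scale. Early calls were 756 higher and 1093 lower on the deposited scale, and 3152 lower with the median of all probe sets. The difference test called 0 higher and 4 lower on the deposited scale and with the trimmed mean, 0 and 3 with quantile normalization or the median of all probe sets, 0 and 5 with the mean of probe sets, 3 higher with the 75th percentile, 12 higher with no filter, and 210 and 137 with rat as a random block.

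Leaving out 1 rat, an unpaired fit in which the lone 6-week array is assumed to vary like the other groups called 0 to 0 higher and 0 to 4 lower, which is no test of the pair left; 1 rat alone had 96 to 158 genes 2-fold higher and 60 to 97 lower, of which 35 to 60 and 23 to 46 lay beyond both controls at 16 weeks and 21 to 45 and 26 to 55 at 22 weeks. Early calls ranged from 473 to 1495 higher and 633 to 2268 lower, both lowest without control_rat_163, and difference calls from 0 to 78 higher and 0 to 73 lower, highest without rat 13 of week 1.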

Other observations

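After the values were seen, the 18 genes at least 4-fold lower in the left muscle of rat 61 than in the other 3 controls were listed. Asns, asparagine synthetase, had 5.44 and 6.25 in the right muscles of rats 61 and 62, against 5.42 and 9.44 in their left muscles, and 9.99 and 10.7 in the unpaired controls. Phgdh, the first enzyme of serine synthesis, had 4.13 and 5.72 in the right muscles, against 3.28 and 8.54 in the left. Mthfd2, a mitochondrial folate enzyme, had 4.87 and 6.88, against 5.31 and 9.16. Trib3 had 3.28 and 5.69, against 3.28 and 8.17. For these genes both right muscles and the left muscle of rat 61 were low. Early muscles were low too, with medians of 6.79 for Asns and 5.61 for Mthfd2, while weeks 16 and 22 had 9.20 and 9.65 for Asns. Of the 18 genes, 12 were at least 2-fold lower in the right leg of rat 62, and 3 differed 2-fold between the legs of rat 61. Over all 10187 genes tested the counts were 97 and 156. The 18 genes were chosen for a left muscle of rat 61 far below that of rat 62, which by itself favours a lower right leg in rat 62.

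Other genes of that list were low in both legs of rat 61. Sv2b, a synaptic vesicle protein, had 7.08 in the right and 7.03 in the left muscle of rat 61, and 11.3 in the right and 11.4 in the left muscle of rat 62. Trim25, a ubiquitin ligase, had 5.62 and 5.71 in the right and left muscles of rat 61, and 8.06 and 8.04 in those of rat 62. These values carry no test.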
